A study of Mus musculus with 11 samples.

Results

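The 9 miRNAs described here were mmu-miR-709, mmu-miR-494-3p, mmu-miR-721, mmu-miR-1949, mmu-miR-2137, mmu-miR-3472, mmu-miR-5105_v19.0, mmu-miR-6360 and mmu-miR-6378, out of 1247 mouse miRNAs on the array. The species prefix is left out below, and the suffix _v19.0 is that of the files. They were chosen as poorly conserved miRNAs whose level relative to the rest of the array was lowest in cardiac macrophages 30 days after injury. Their low relative level at day 30 is therefore what selected them, and every day 30 value below is a description without a test. Conservation is not measured by an array, and miR-494-3p is known to have a human counterpart. All 9 were detected on at least 2 arrays, the filter for testing, which 29.6% of the miRNAs on the array passed. 8 of the 9 were detected on all 11 arrays, and miR-3472 was missed on 1.

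GFP-positive macrophages had been sorted from hearts of Cx3cr1GFP/+ mice aged 2 to 3 months, in which 1 copy of the fractalkine receptor gene Cx3cr1 is replaced by GFP in every group. Myocardial infarction was produced by cryoinjury. Ly6Clow/CX3CR1high cells came from uninfarcted hearts without surgery (called day 0, 2 arrays), and Ly6Chigh/CX3CR1low cells came from day 3 after injury (3 arrays). Ly6Clow/CX3CR1high cells were taken again at day 7 (3 arrays) and day 30 (3 arrays). The day 3 group thus differs from the others in sorted population as well as in time, and these cannot be told apart. In such bulk samples, a weaker signal from fewer cells carrying a miRNA and from less of it per cell cannot be told apart either.

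A miRNA is a short RNA that guides an Argonaute protein to complementary sites, mostly in the untranslated ends of messenger RNAs, and lowers the output of that message. Recognition rests mainly on the seed, the bases at positions 2 to 8, so miRNAs with the same seed share many predicted targets. Names were given in order of registration, and many mouse miRNAs with high numbers were registered from deep sequencing and lack a counterpart in most other mammals. Ly6Chigh monocyte-derived cells dominate the early inflammatory phase of infarct healing, and Ly6Clow cells the later repair phase and the uninjured heart.

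Mature sequences were found in RefSeq (GRCm38.p6) for 4 of the 9, and they are shown because the seed is what would set these miRNAs apart in function. Seeds are in capitals.
miR-494-3p: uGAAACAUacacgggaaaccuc
miR-721: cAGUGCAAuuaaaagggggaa
miR-2137: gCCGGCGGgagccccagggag
miR-3472: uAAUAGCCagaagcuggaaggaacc
These lie at chr12:109715367-109715388 on the plus strand, chr5:136375777-136375797 on the minus strand, chrX:72992113-72992133 on the plus strand and chrX:145039390-145039414 on the plus strand, in the order printed. The 4 seeds differ from one another. miR-2137 is rich in G and C (85.7% of its bases, against 45.5% in miR-494-3p, 42.9% in miR-721 and 48.0% in miR-3472). Among 293 tested miRNAs outside the group with a sequence, the median was 50.0%, and 4 were at or above miR-2137. By their annotated spans, the hairpin of miR-709 overlapped Rfx1, that of miR-721 Cux1, that of miR-1949 the long noncoding gene Snhg4, that of miR-2137 Zfp185, that of miR-3472 Rtl4 and that of miR-6360 Mapre2. Those of miR-494-3p and miR-6378 overlapped no other gene.

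The arrays differed greatly in brightness, taken as the 75th percentile of the total gene signal over the miRNAs detected on every array (10.1% of those on it). It was 163 and 55.7 scanner units at day 0, 962, 805 and 1607 at day 3, 322.6, 114 and 259.7 at day 7, and 2304, 1453 and 1754 at day 30. This is a 41.4-fold span, whereas 4 control features of the array spanned 2.16-fold. Day 30 arrays were the brightest on average and day 0 arrays the dimmest, and between 151 and 340 miRNAs were detected per array. The arrays of day 30 replicates 2 and 3 were closer to each other than scanner error allows for (squared difference 0.250 times the expected one, against 3.81 to 49.9 in the other 9 replicate pairs), and entered as 1 sample. Leukocyte miR-223-3p, miR-142a-3p and miR-146a-5p were detected on all 11 arrays, miR-155-5p on 9 and miR-142a-5p on 7. Markers of other cells were present in part. Of the muscle miRNAs, miR-133a-3p and miR-133b-3p were detected on 11 arrays, miR-1a-3p on 6, and the cardiomyocyte miR-208a-3p, miR-208b-3p and miR-499-5p on 0. Endothelial miR-126a-3p was detected on 11 arrays and miR-126a-5p on 4. Of fibroblast and smooth muscle miRNAs, miR-199a-3p was detected on 10, miR-199a-5p and miR-214-3p on 9, miR-143-3p on 5 and miR-145a-5p on 0. Erythroid miR-451a was detected on 7 and miR-144-3p on 0. The part of these cells in the values below was not tested. Signals are given below as deposited, in scanner units, and as scaled signals, which are divided by the brightness of their array and given in log2.

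After scaling, 8 of the 9 miRNAs had their lowest mean at day 30, and each of these 8 was lower on all day 30 arrays than on every other array. The same 8 were lowest at day 30 in the authors' deposited table. miR-709 was the exception, with a lowest mean at day 3. Of all tested miRNAs, 46.9% had their lowest scaled mean at day 30, and 24.7% had all day 30 arrays below every other array. On the signal as deposited, only miR-721 had its lowest mean at day 30.

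**Figure D1:**
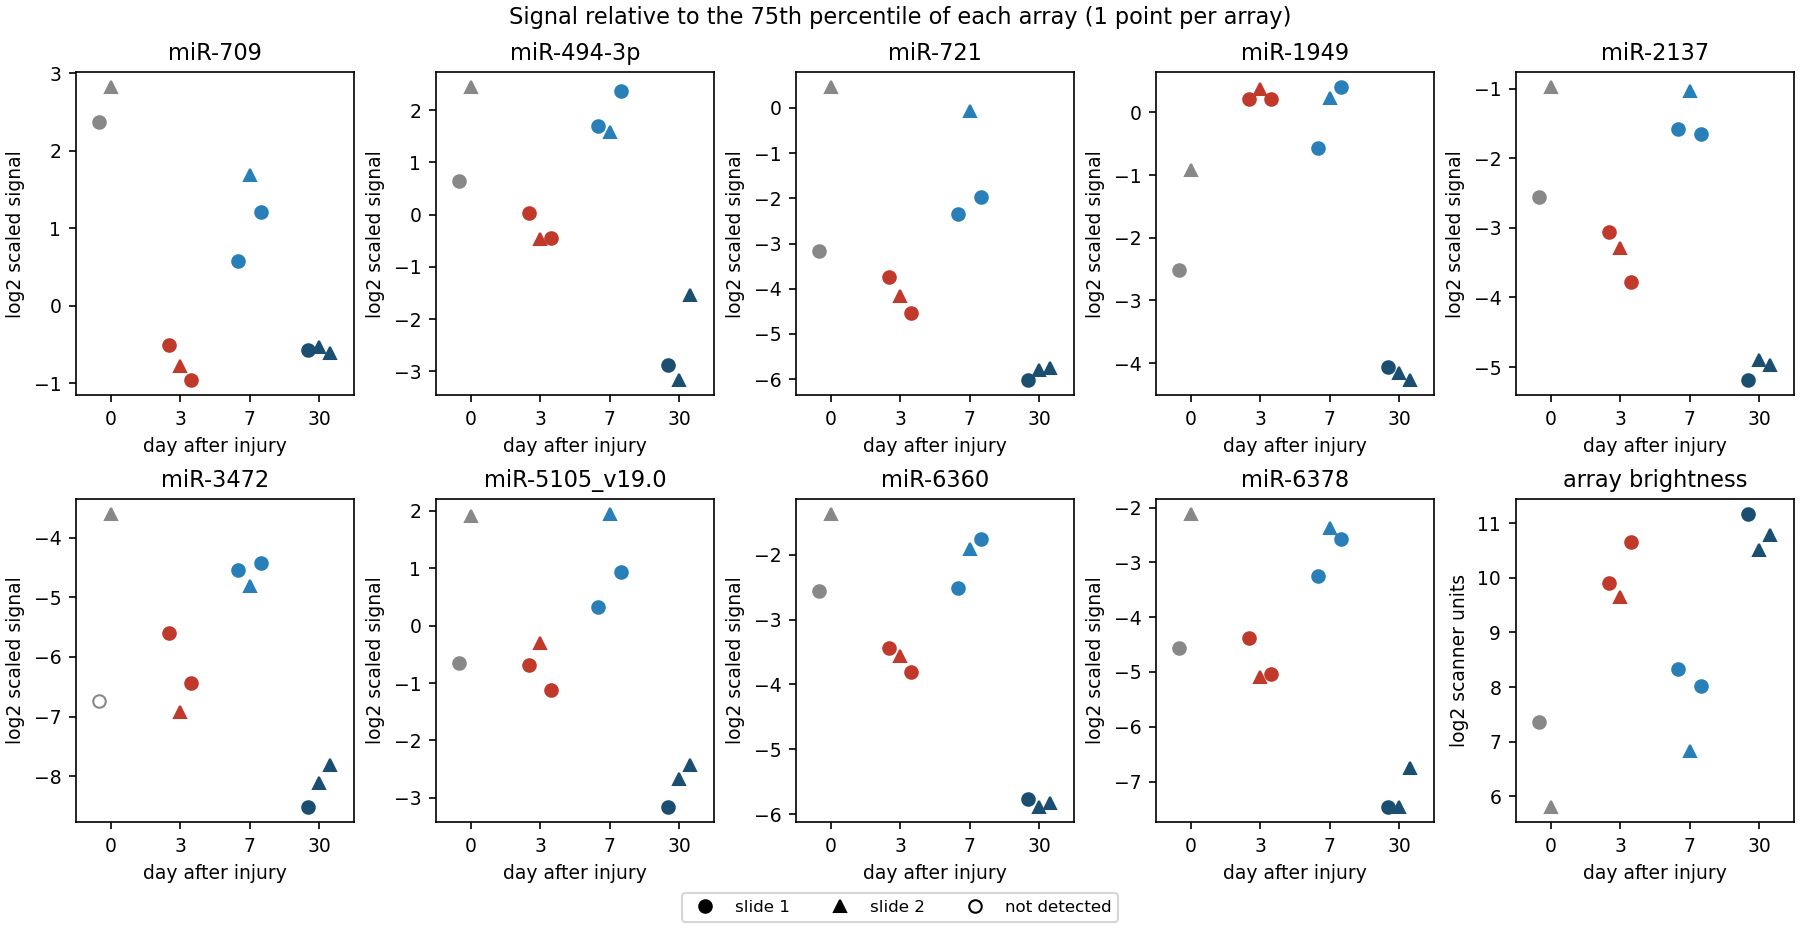
Log2 scaled signal of each of the 9 miRNAs (vertical axis) by day after injury, with 1 point per array, and log2 brightness of the arrays in the last panel. Circles are slide 1, triangles slide 2 and the open symbol an array on which the miRNA was not detected. Day 30 arrays lie below all others for each miRNA except miR-709, whose day 3 and day 30 arrays overlap.

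miR-709, which in mouse cells has been described as a nuclear regulator of the processing of miR-15a and miR-16-1, had the highest deposited signals at day 30. Its signal was 846 and 395 at day 0, 677, 469 and 824 at day 3, 481, 366 and 599.5 at day 7, and 1552, 1007 and 1149 at day 30. All 3 day 30 arrays were above the 8 others. Its scaled mean was 2.60 ± 0.32 at day 0 (SD, n = 2), -0.75 ± 0.23 at day 3 (n = 3), 1.16 ± 0.56 at day 7 (n = 3) and -0.57 at day 30 (n = 2 samples). The scaled order of the groups was thus the reverse of their order in brightness, apart from day 3 and day 30, whose arrays overlapped.

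miR-1949, encoded within the span of the snoRNA host gene Snhg4, had another course. Its deposited signal was 28.6 and 29.5 at day 0, 1116, 1046 and 1861 at day 3, 217, 133 and 344 at day 7, and 138, 81.4 and 90.5 at day 30. On this scale it was high at day 3 and low at day 30 and at day 0, where the arrays were the dimmest on average. The 3 day 30 arrays were below every day 3 array although they were brighter on average. The scaled mean was -1.72 ± 1.13 at day 0, 0.27 ± 0.09 at day 3, 0.02 ± 0.52 at day 7 and -4.14 ± 0.11 at day 30 (n = 2, 3, 3 and 2). Relative to the array, day 0 thus lay above day 30.

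miR-494-3p comes from the imprinted Dlk1-Dio3 region, which holds one of the largest miRNA clusters of the mouse genome. Its deposited signal was 256 and 303 at day 0, 982, 582 and 1176 at day 3, 1044, 338 and 1340.2 at day 7, and 313, 161 and 608 at day 30. Day 30 replicates 2 and 3, which were otherwise alike (median absolute log2 difference 0.06 over 290 miRNAs), differed in miR-494-3p by 1.64 in log2, the second largest difference of the 290. The highest day 30 array overlapped the lowest day 3 array on this scale. After scaling the day 30 arrays lay below all others, with a mean of -2.62 ± 0.37 against 1.55 ± 1.27 at day 0, -0.30 ± 0.28 at day 3 and 1.88 ± 0.43 at day 7.

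miR-721, described in mice as a product of Th17 lymphocytes in acute myocarditis, had a deposited signal that hardly tracked the arrays. It was 18.3 and 76.7 at day 0, 71.7, 44.8 and 68.9 at day 3, 63.2, 107.5 and 66.2 at day 7, and 35.3, 26.3 and 32.4 at day 30. The dimmest day 0 array gave 76.7 and the brighter one 18.3. The day 30 arrays were below all day 3 and day 7 arrays but lay between those of day 0. Scaled means were -1.35 ± 2.56 at day 0, -4.15 ± 0.40 at day 3, -1.47 ± 1.22 at day 7 and -5.90 ± 0.18 at day 30. The lymphocyte miRNA miR-150-5p was detected on 9 of the 11 arrays and on neither day 0 array, with geometric mean signals of 23.3 at day 3, 7.46 at day 7 and 10.4 at day 30, and its part in the miR-721 signal was not tested.

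The seed of miR-721 is that of the miR-130 and miR-301 families, and its first 9 bases are identical to those of 3 other tested miRNAs that have a mature entry in the RefSeq table, shown here for comparison.
miR-130a-3p: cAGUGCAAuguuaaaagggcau
miR-130b-3p: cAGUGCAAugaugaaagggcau
miR-301a-3p: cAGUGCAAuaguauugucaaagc
Their genes are elsewhere, at chr2:84741116-84741137 on the minus strand, chr16:17124071-17124092 on the minus strand and chr11:87113054-87113076 on the plus strand (GRCm38.p6). These miRNAs and miR-301b-3p of the same family, unlike miR-721, were not detected on either day 0 array. miR-130b-3p was at least 9.69-fold higher at day 3 than at day 0 relative to the array (limma, adjusted p = 0.000353), and miR-301a-3p at least 3.12-fold (adjusted p = 0.0132). For miR-130a-3p no fold could be given (adjusted p = 0.773). miR-301b-3p was detected on 2 arrays, both of day 3, and its deposited geometric means were 1.02 at day 0 and 3.23 at day 3. Its scaled difference of day 3 from day 0 was -1.52 (limma, adjusted p = 0.0361). This value cannot be read as a fall, because its day 0 side is background divided by the brightness of dim arrays. Since its day 0 values were all below detection, no fold could be given for it either. As deposited, geometric means at days 0, 3, 7 and 30 were 1.45, 178, 9.65 and 84.9 for miR-130b-3p, and 37.5, 60.5, 76.6 and 32.1 for miR-721. miR-130b-3p thus had its higher values in the 2 brighter groups, and miR-721 did not.

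miR-5105_v19.0 was the brightest of the remaining 5. Its deposited signal was 103.5 and 210.4 at day 0, 597, 656 and 739.6 at day 3, 402, 439 and 496.6 at day 7, and 257, 228 and 325 at day 30. The groups did not overlap on this scale, and day 30 was above day 0 only. Its scaled mean at day 30 was -2.86 ± 0.43, against 0.63 ± 1.82 at day 0, -0.70 ± 0.41 at day 3 and 1.07 ± 0.82 at day 7.

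miR-2137, the member rich in G and C, gave 27.8 and 28.4 at day 0, 115, 82.2 and 118 at day 3, 108, 55.7 and 83.1 at day 7, and 63.0, 48.9 and 56.1 at day 30. miR-6360 gave 27.7 and 21.6 at day 0, 89.0, 67.9 and 115 at day 3, 56.6, 30.3 and 77.1 at day 7, and 42.5, 24.4 and 30.9 at day 30. In both, the day 30 arrays were below every day 3 array. miR-6378 gave 6.89 and 12.9 at day 0, 46.4, 23.6 and 48.8 at day 3, 34.0, 21.99 and 43.4 at day 7, and 13.1, 8.19 and 16.2 at day 30. Its day 30 arrays were below all day 3 and day 7 arrays. miR-3472, the weakest of the 9, was not detected on day 0 replicate 1 and gave at most 19.97 scanner units, on a day 3 array, so that its scaled day 30 level of -8.25 ± 0.39 lay next to the floor of -8.53.

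**Figure D2:**
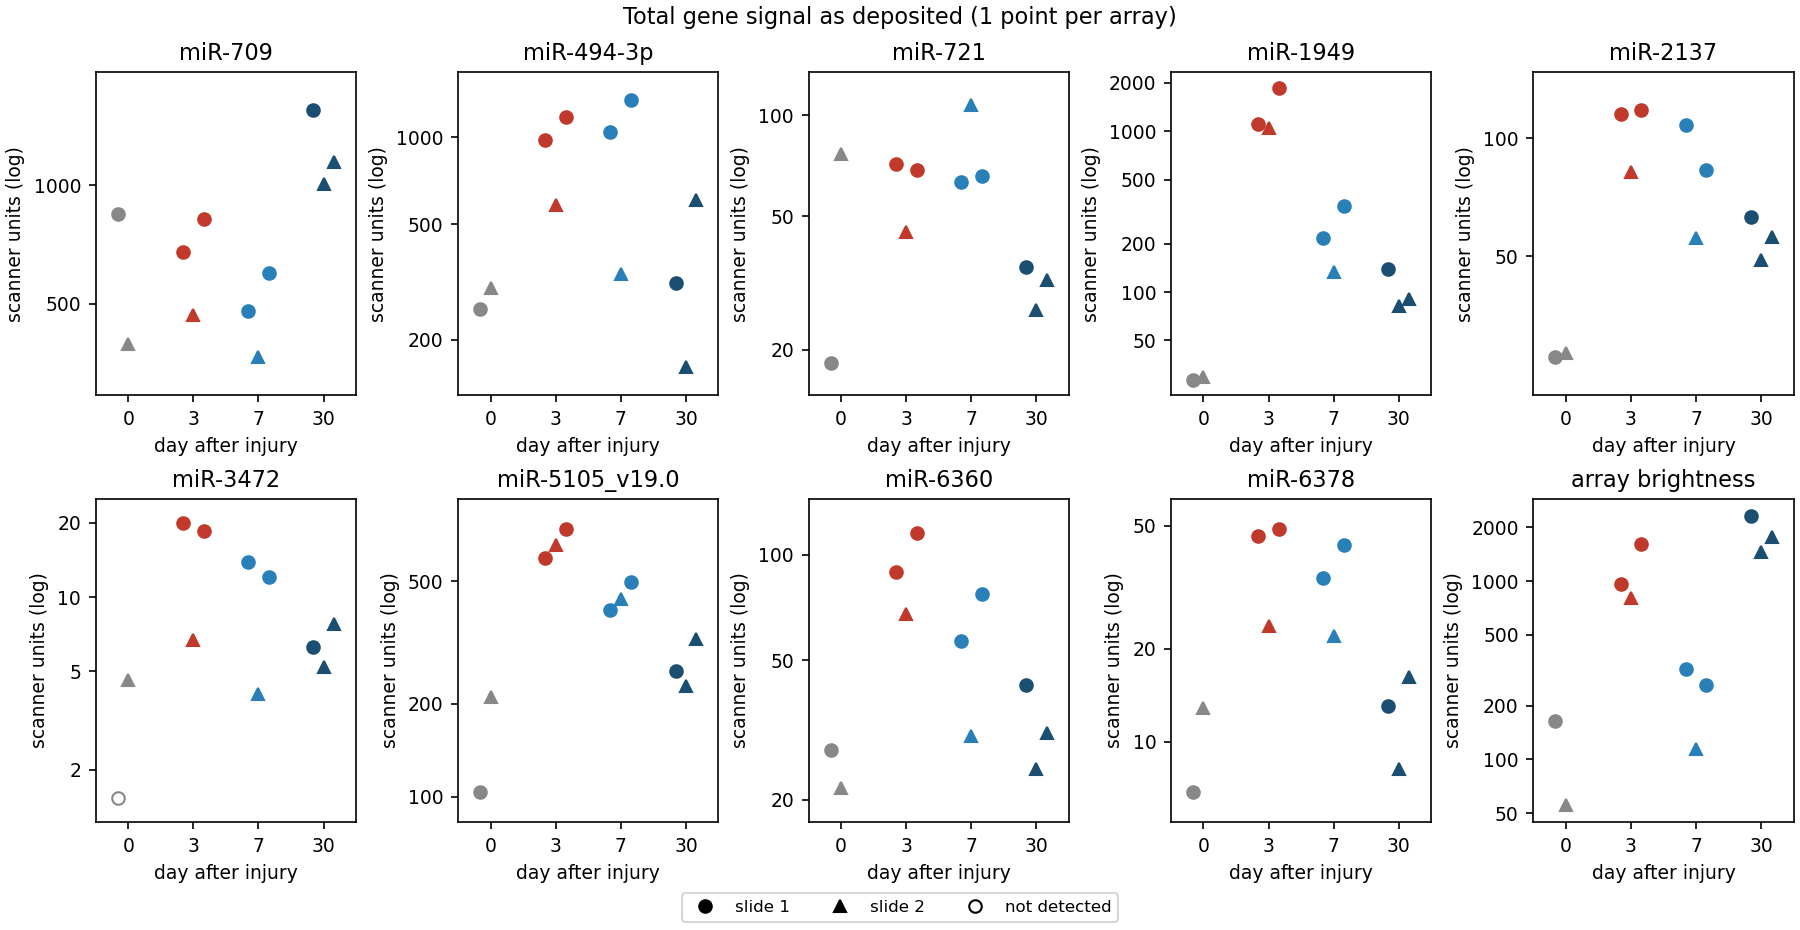
Total gene signal as deposited, in scanner units on log axes, of each of the 9 miRNAs by day after injury, with 1 point per array, and array brightness in the last panel. Circles are slide 1, triangles slide 2 and the open symbol an array on which the miRNA was not detected. Only miR-709 was highest at day 30, the day of the brightest arrays, and miR-1949 had the widest gap of the 9 between day 30 and day 3, the groups with the brightest arrays.

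The day 3 arrays are the nearest to the day 30 arrays in brightness, with a difference of 0.83 in log2 in favour of day 30, against 3.18 between day 30 and day 7 and 4.33 between day 30 and day 0. As deposited, 6 of the 9 miRNAs (miR-721, miR-1949, miR-2137, miR-5105_v19.0, miR-6360 and miR-6378) were lower on every day 30 array than on every day 3 array, as were 25.2% of all tested miRNAs. The log2 difference of day 30 from day 3 on this scale was -3.57 for miR-1949, between -0.85 and -1.62 for 7 of the others, and 1.01 for miR-709. The median over the 9 was -1.32, and 0.34 over the miRNAs detected on all arrays. Thus 8 of the 9 had a lower mean at day 30 before any scaling, and 8 also did under scaling to control features. Against day 7, where the brightness gap is larger, 3 of the 9 (miR-721, miR-5105_v19.0 and miR-6378) had all day 30 arrays below all day 7 arrays as deposited. Against day 0 none did.

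Scaling takes the same brightness difference of 0.83 in log2 off the day 30 minus day 3 difference of each of the 9. By construction, 8 of the 9 thus lay further below 0 than as deposited, and miR-709 less far above it. The scaled difference of day 30 from day 3 was -4.41 for miR-1949, between -1.68 and -2.45 for 7 others and 0.18 for miR-709, with a median of -2.16 over the 9 and -0.41 over all tested miRNAs. Against day 7 the median was -3.93, and -0.68 over all tested miRNAs. Against day 0 it was -3.49, and -1.37 over all tested miRNAs. For the background, limma called 21.1% of tested miRNAs lower at day 30 than at day 3, 34.1% lower than at day 7 and 47.4% lower than at day 0 (adjusted p below 0.05). The members had been chosen on these comparisons, so their own calls (6 of 9 against day 3, and 9 of 9 against day 7 and day 0) are not a result.

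Whether the relative level of a miRNA follows array brightness was tested inside the groups, which the choice of the members did not use. Arrays of a group differed in brightness, by between 0.53 and 1.55 in log2 from slide 2 to slide 1. The slope is the change in log2 scaled signal per doubling of brightness at equal group. A slope of 0 belongs to a signal that brightens with its array, and a slope of -1 to one whose deposited signal stays the same. 4 of the 9 miRNAs had a slope below 0 by limma, adjusted over all tested miRNAs. Of all tested miRNAs 44.7% did, so that the count is near this share. The tested miRNAs include some detected on as few as 2 arrays, whose scaled values are mostly background divided by brightness. For example, miR-30d-3p, detected on 2 arrays, had a slope of 0.05 as deposited and -0.74 after scaling. The share called among miRNAs detected on all arrays was not taken. Slopes above 0 were called in 5.42% of tested miRNAs and in none of the 9.

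The 4 were miR-721 with -1.62 ± 0.27 (SE; adjusted p = 0.00461), miR-5105_v19.0 with -1.23 ± 0.19 (adjusted p = 0.00408), miR-2137 with -0.68 ± 0.18 (adjusted p = 0.0160) and miR-6378 with -0.85 ± 0.27 (adjusted p = 0.0267). The 95% interval was -2.23 to -1.01 for miR-721 and -1.66 to -0.80 for miR-5105_v19.0. Fitted on deposited signals, the slope was -0.62 for miR-721 (95% interval -1.26 to 0.02) and -0.23 for miR-5105_v19.0 (-0.63 to 0.17). Both of these intervals include 0, a deposited signal that stays the same. The other 5 had slopes between -0.41 and -0.72 that did not pass (adjusted p between 0.0746 and 0.239). The median slope was -0.68 over the 9, -0.54 over all tested miRNAs and -0.28 over those detected on all arrays. On 10 samples in all, 6 of the 9 slopes had an unadjusted p below 0.05. Slide 1 held the brighter arrays of each group, so slide and brightness were bound together, and with the slide as a block 0 of the 9 slopes and 0 of all tested slopes were called. With one or the other day 0 array left out, 2 of the 9 were called.

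The deposited signals within groups show how the members differed. At day 0 the slide 1 array was brighter by 1.55 in log2, yet its deposited log2 signal differed from that of the other array by -2.06 for miR-721, -1.59 for miR-3472 (not detected on the slide 1 array), -1.02 for miR-5105_v19.0 and -0.90 for miR-6378. miR-709 was higher on the brighter array, by 1.10. miR-1949 and miR-2137 hardly differed between the 2 arrays, at -0.04 and -0.03. At days 3, 7 and 30 the slide 1 arrays differed from those of slide 2 by 0.65, -0.73 and 0.27 for miR-721, and by 0.02, 0.03 and -0.09 for miR-5105_v19.0. miR-3472 differed by 1.53, 1.67 and -0.03 at these days, so that its day 0 arrays ran against its day 3 and day 7 arrays.

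**Figure D3:**
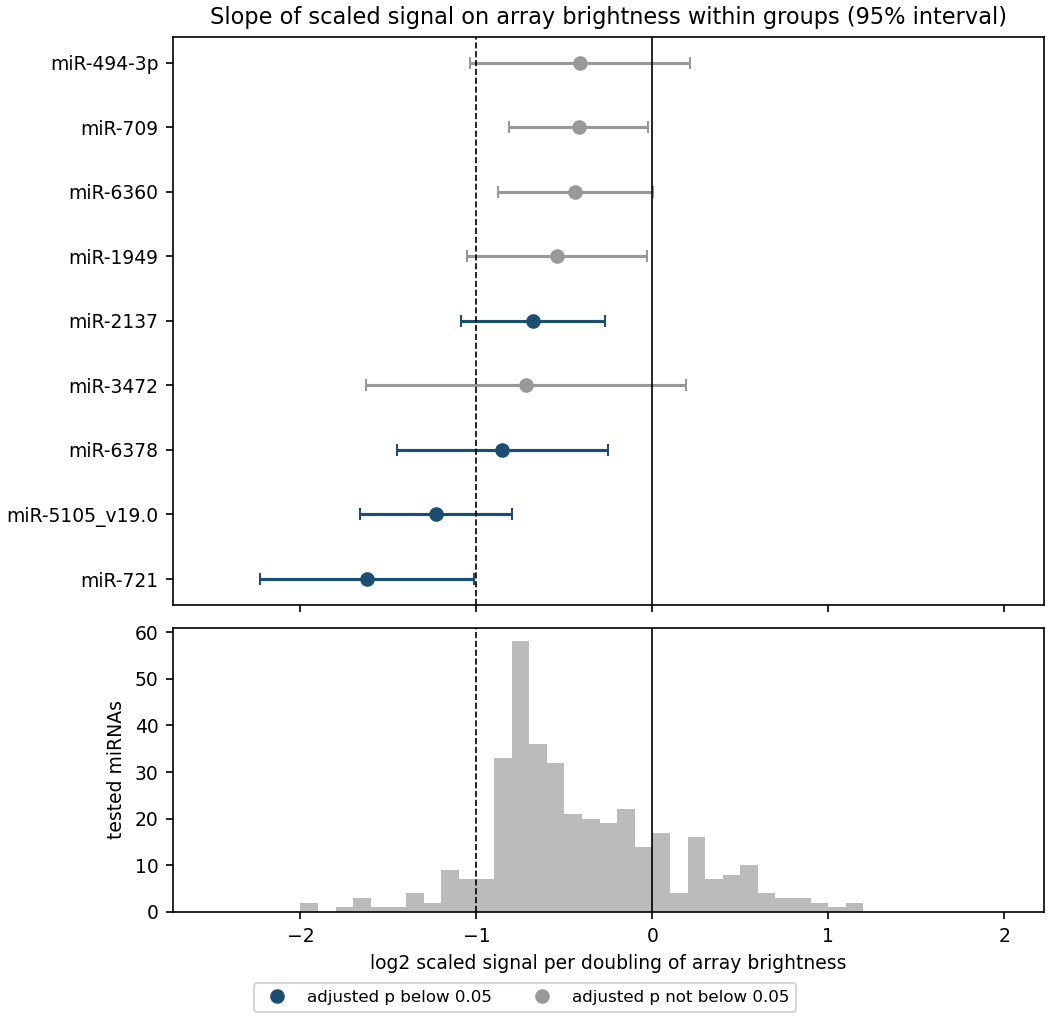
Upper panel: slope of log2 scaled signal on log2 array brightness within groups for each of the 9 miRNAs, with 95% intervals from limma, in dark blue where the adjusted p was below 0.05. Lower panel: the same slope for all tested miRNAs. The solid line at 0 is a signal that follows its array and the dashed line at -1 a deposited signal that stays the same. The estimates of miR-721 and miR-5105_v19.0 lie beyond -1, in the low tail of all tested slopes (ranks 6 and 14 from the lowest). The interval of miR-5105_v19.0 includes -1. The other 7 estimates lie between -0.41 and -0.85.

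With brightness as a covariate, the day 30 difference from day 3 was still below 0 in 8 of the 9, at -3.95 for miR-1949, -1.98 for miR-494-3p, -1.84 for miR-6360, -1.74 for miR-6378 and -0.40 for miR-721. Against day 7 it was -3.18 for miR-494-3p, -2.44 for miR-1949 and -2.36 for miR-6360, but -0.02 for miR-5105_v19.0 and 0.72 for miR-721. Against day 0 it was below 0 in 6 of the 9, with miR-721 at 2.46 and miR-5105_v19.0 at 1.83. miR-721 and miR-5105_v19.0 are the 2 with the steepest slopes, and miR-3472 stood at 0.02 and miR-1949 at -0.08 against day 0. These values extend a slope seen over at most 1.55 log2 units of brightness to a gap of up to 4.33, and are a description.

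**Figure D4:**
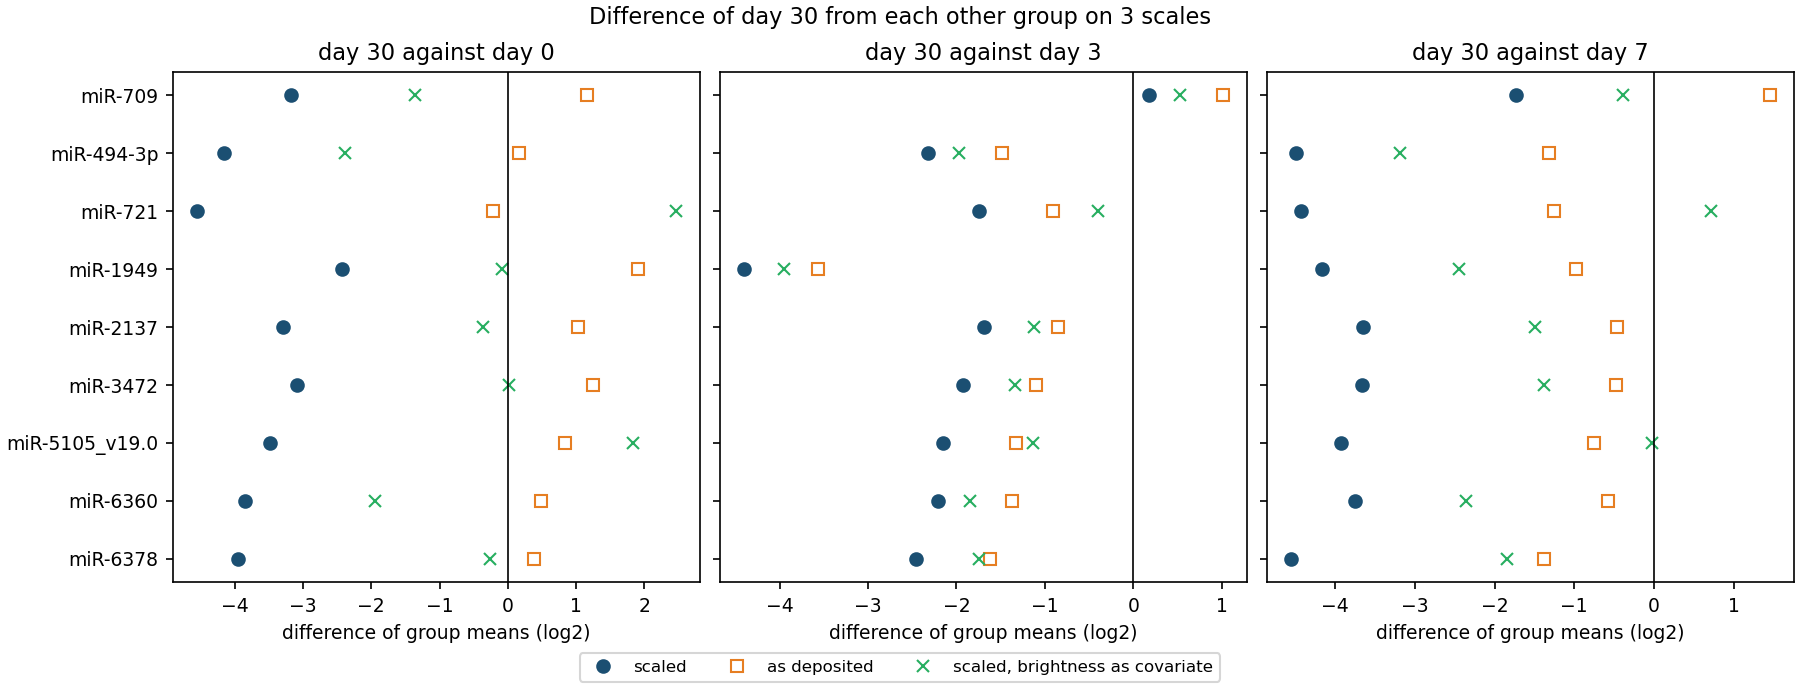
Log2 difference of the day 30 mean from the day 0, day 3 and day 7 means for each of the 9 miRNAs, as scaled signal (filled circles), as deposited (open squares) and as scaled signal with brightness as a covariate (crosses). Against day 3 the 3 scales give the same sign for every miRNA. Against day 0 they do not: 8 of the 9 were above 0 as deposited and all 9 below 0 after scaling.

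The 3 comparisons without day 30 were tested, since the choice of members did not use these differences. It did use the same day 0, day 3 and day 7 arrays, and earlier results were known. The tests are therefore not independent of the choice. At day 3 against day 0, miR-1949 was higher by 1.98 ± 0.51 (log2 scaled signal, SE; adjusted p = 0.00819), as were 16.3% of tested miRNAs. It passed the test under every alternative run, with differences from 1.19 (without day 0 replicate 1) to 5.48 (as deposited), where on the deposited scale the median miRNA detected on all arrays was higher by 2.73. The day 3 and day 0 arrays of miR-1949 did not overlap on either scale.

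5 of the 9 were lower at day 3 than at day 0 after scaling, as were 39% of tested miRNAs. The log2 differences were -3.35 for miR-709 (adjusted p = 0.000273), -2.80 for miR-721 (adjusted p = 0.0183), -1.84 for miR-494-3p (adjusted p = 0.0131), -1.64 for miR-6360 (adjusted p = 0.0112) and -1.61 for miR-2137 (adjusted p = 0.0183). The deposited signals of all 5 were higher at day 3 on average, by 0.15 to 1.88, and the sign also turned for miR-721, miR-494-3p, miR-6360 and miR-2137 under scaling to control features. With brightness as a covariate 2 of the 9 were called in either direction, and miR-1949, which was higher, was among them. The differences of the 5 were then -1.88 for miR-709, -0.40 for miR-494-3p, -0.10 for miR-6360, 0.75 for miR-2137 and 2.86 for miR-721. miR-3472, miR-5105_v19.0 and miR-6378 had differences of -1.15, -1.33 and -1.50 that did not pass (adjusted p of 0.2004, 0.120 and 0.0570).

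At day 7 against day 3, 7 of the 9 were higher after scaling, as were 21.1% of tested miRNAs. The differences were 2.68 for miR-721 (adjusted p = 0.0190), 2.17 for miR-494-3p (adjusted p = 0.00500), 2.10 for miR-6378 (adjusted p = 0.0119), 1.96 for miR-2137 (adjusted p = 0.00604), 1.91 for miR-709 (adjusted p = 0.00391), 1.77 for miR-5105_v19.0 (adjusted p = 0.0394) and 1.54 for miR-6360 (adjusted p = 0.0125). As deposited, 6 of these 7 had a lower mean at day 7, with differences between -0.17 and -0.80, against -1.71 for the median miRNA detected on all arrays. miR-3472 differed by 1.73 (adjusted p = 0.0558) and miR-1949 by -0.25 (adjusted p = 0.647). None of the 9 was lower at day 7, and 16% of tested miRNAs were. With brightness as a covariate the count was 0, and without day 3 replicate 3 it was 4.

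At day 7 against day 0, which are cells of the same sorted population, limma called 0 of the 9, with 2 at an unadjusted p below 0.05 (miR-709 at -1.44 with adjusted p = 0.1001, and miR-1949 at 1.74 with adjusted p = 0.0926). Of all tested miRNAs, 3.25% were called higher and 0.542% lower. The median difference was 0.35 over the 9 and -0.51 over all tested miRNAs. This comparison has only 2 day 0 arrays, which lay far apart in most members. In the authors' deposited table, tested in the same way, 1 of the 9 was called.

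Over the 10 samples the scaled levels of 7 of the 9 ran close together, with a correlation of 0.946 to 0.996 with the mean of the other members, while miR-709 (0.69) and miR-1949 (0.63) stood apart. Samples share their array's brightness, with which the scaled level correlated at between -0.79 and -0.95 in 8 of the 9 and at -0.33 in miR-1949. These are descriptions over samples that differ in group. Among 118 other miRNAs detected on all arrays, those most like the 8 members detected everywhere were miR-1906 (r = 0.99), miR-6243_v19.0 (0.98), miR-3098-5p (0.98), miR-3470a (0.98), miR-1224-5p (0.98) and miR-5109_v19.0 (0.97). Their slopes on brightness lay between -0.34 and -0.89, and all but that of miR-3098-5p passed the test.

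Low relative levels at day 30 were common among miRNAs with high numbers. Of 120 other tested miRNAs numbered 690 or above, 88 (73.3%) had their lowest scaled mean at day 30, and of 112 tested miRNAs from broadly conserved families 20 (17.9%) did. The slope on brightness was called below 0 in 68 and above 0 in 0 of the high-numbered miRNAs (median -0.63), and below 0 in 28 and above 0 in 19 of the conserved ones (median -0.18). At day 3 against day 0, 10 of the high-numbered miRNAs were higher and 52 lower, against 35 and 32 of the conserved ones. At day 7 against day 3, 41 were higher and 4 lower, against 10 and 36. These counts include miRNAs detected on few arrays, whose scaled values are mostly background divided by brightness. Among the high-numbered ones, miR-5110 and miR-3106-5p were detected on day 30 arrays only. Their slopes were still called below 0, and their day 3 levels lower than day 0. The share of such miRNAs in each list was not taken. Whether detection accounts for the contrast between the lists was not tested.

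Of 99 other miRNAs of the Dlk1-Dio3 region on the array, 5 were detected on at least 2 arrays (miR-127-3p, miR-370-3p, miR-487b-3p, miR-770-3p and miR-3072-5p). miR-494-3p was thus one of few of its cluster with a signal, and of the other 5 only miR-3072-5p was detected on all 11 arrays. miR-127-3p was detected on 2 arrays and miR-487b-3p and miR-770-3p on 3 each, so their scaled values are mostly background divided by brightness. The slope was called below 0 in 5 of the 5 (44.7% of all tested miRNAs), 4 were called lower at day 3 than at day 0 after scaling (39% of all), and 2 had their lowest mean at day 30 (46.9% of all). At day 7 against day 3, miR-3072-5p was higher by 1.30 and miR-370-3p by 1.34 (adjusted p = 0.0375 for both).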

How the data were processed

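Each array carried Cy3-labelled miRNA from 100 ng of total RNA of 1 biological replicate, per the labels' protocols. Agilent Feature Extraction made the values, per the submitters' processing notes. The deposited scanner files hold 1 intensity in scanner units per miRNA (the total gene signal), with its error and a detection flag, for 1247 miRNAs and 21 controls. The authors' deposited table holds log2 values for 317 miRNAs, quantile normalized by the authors, and served as an alternative.

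Scaled signals are deposited signals over the array's brightness, a 75th percentile taken over miRNAs detected everywhere. Values under a floor of 0.00271 (the median over arrays of the lowest detected scaled signal) were set to the floor before the log2 step. miRNAs with a detection flag on 2 or more of the 11 arrays were tested in limma 3.58.1 (R 4.3.3, jsonlite 2.0.0), on 10 samples in 4 groups, with 6 residual degrees of freedom (5 with brightness). Benjamini-Hochberg adjustment ran over all tested miRNAs within each comparison, with a threshold of 0.05. Intervals are 95% intervals. The number of arrays limits the precision. For a miRNA undetected in a group, the fold is a bound: the other group's mean over each array's lowest detected signal. Slides were told apart by a number in the names of the deposited scanner files. The tests were tried on simulated data. Alternatives concerned scaling, floor, filter, blocks, covariate and arrays left out.

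The members, lists and tests were chosen with earlier results of these data known. All 9 members are named in every comparison, with the 6 miRNAs most alike by correlation. miR-150-5p comes from the marker list, and those of the miR-721 seed family were named after their values were seen. Hairpin spans are from RefSeq's gene table. Replicate numbers were not used to pair samples. Deviations of same-numbered arrays correlated between -0.25 and 0.50, with 0.47 and 0.50 between day 0 and day 7. Arrays of different numbers were not compared in this way, so pairing was not tested. In every group replicate 1 was on slide 1 and replicate 2 on slide 2, so number and slide cannot be told apart for these.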

Additional observations from a re-analysis of the deposited data

How the results depend on the processing

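Counts are of the 9 members called, which were 4 for the brightness slope, 6 at day 3 and 0 at day 7 against day 0, and 7 between day 7 and day 3, while 8 had their lowest mean at day 30. Settings not given here left a count within 1.5 times of these. The 3 comparisons and the slope depended on how array brightness was removed, and the cause was not tested. With the 75th percentile over all miRNAs of the array, the 4 counts were 0, 1, 4 and 1 in that order. The slope of miR-2137 was then 0.0087, and day 3 minus day 0 was 0.70 for miR-494-3p, 0.93 for miR-2137 and 0.90 for miR-6360. Scaling to the control features gave a slope count of 1, with 5 at day 7 against day 0 and 1 between day 7 and day 3, and 3 lowest at day 30. Day 3 minus day 0 was then 1.14 for miR-494-3p, 0.18 for miR-721, 1.37 for miR-2137, 1.72 for miR-3472, 1.65 for miR-5105_v19.0, 1.35 for miR-6360 and 1.49 for miR-6378. Day 7 minus day 0 was 1.08 for miR-6360, and day 7 minus day 3 was -0.038 for miR-5105_v19.0 and -0.26 for miR-6360.

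Without scaling, the counts were 1 for the slope, 4 at day 7 against day 0, 1 between day 7 and day 3 and 1 for lowest at day 30. Slopes were 0.58 for miR-709, 0.32 for miR-2137 and 0.15 for miR-6378. These are the scaled slopes of -0.42, -0.68 and -0.85 on another scale, and not a reversal. On deposited signals a slope of 0 is a signal that stays the same, which is -1 after scaling. The slope count without scaling therefore answers another question than the count of 4. Day 3 minus day 0 was 0.15 for miR-709, 1.65 for miR-494-3p, 0.69 for miR-721, 1.88 for miR-2137, 2.12 for miR-3472, 2.16 for miR-5105_v19.0, 1.86 for miR-6360 and 2.00 for miR-6378. Day 7 minus day 3 was -0.44 for miR-709, -0.17 for miR-494-3p, -0.38 for miR-2137, -0.57 for miR-5105_v19.0, -0.80 for miR-6360 and -0.24 for miR-6378. With brightness as a covariate the counts were 2 at day 3 and 3 at day 7 against day 0, and 0 between day 7 and day 3, with 5 lowest at day 30. Day 3 minus day 0 was 2.86 for miR-721, 0.75 for miR-2137 and 2.97 for miR-5105_v19.0, day 7 minus day 0 was 1.75 for miR-721, and day 7 minus day 3 was -1.11 for both miR-721 and miR-5105_v19.0.

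Scaling to the median gave 2 for the slope and 1 for day 7 against day 0, quantile normalization gave 2 for day 7 against day 0 and the deposited values of the authors gave 1. A floor at the highest detection limit gave 1 for the slope, 3 at day 3 against day 0 and 4 between day 7 and day 3, and no filter gave 7 for the slope and 2 for day 7 against day 0. The slope count was 0 with the slide or the replicate number as a block, 0 with total miRNA signal as brightness, and 2 in a fit without the day 0 arrays. With the slide as a block, day 7 against day 0 gave 1. The replicate block changed no other count by over 1.5 times. Leaving out each array in turn gave 2 to 6 for the slope, 2 to 9 at day 3 (2 without day 0 replicate 2) and 0 to 3 at day 7 against day 0, 4 to 8 between day 7 and day 3 and 8 throughout for lowest at day 30. Over all tested miRNAs, the settings gave 0 to 1120 calls for the slope (185 as reported), 68 to 1110 at day 3 (204) and 0 to 1011 at day 7 (14) against day 0, and 58 to 790 between day 7 and day 3 (137). The highest of each came without a filter. Dim day 0 arrays, 2 in number, limit every comparison with them.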
